A study of Mus musculus with 6 samples.

Results

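The genes described here are 8 structural noncoding RNAs: *Gm42418*, AY036118, *Rpph1*, *Rmrp*, *Malat1*, *Neat1*, *mt-Rnr1*, and *mt-Rnr2*. They were taken by symbol from the 47643 genes of the count table, and each symbol matched a single row. *Gm42418* and *Rpph1* were chosen by their counts, because these differed between the groups in these same samples, so their differences are given as a description without a p-value. The cells were splenic CD4+ T cells that were positive for both the blue and the red form of the *Nr4a3*-driven Timer protein, a reporter of recent T cell receptor signaling. All mice carried the same alleles (Tg4 *Nr4a3*-Tocky *Il10*-GFP, strain label Tg4 Tiger Nr4a3-Tocky), in which the Tg4 transgene fixes the T cell receptor to a myelin basic protein (MBP) peptide, so a polyclonal repertoire is not represented. All were given 80 μg of [4Y] MBP peptide and, 24 h later, 800 μg of a pool of rat IgG1 and rat IgG2a (isotype), of anti-PD1, or of anti-Lag3 antibody. A challenge of 8 μg of peptide came 30 min after the antibody, and spleens were taken 4 h later. Each group held 2 samples that the labels call biological duplicates, and suspensions of replicate mice were stained individually for sorting. The age of the mice is not given in the sources used here.

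These RNAs are not translated. Ribosomal RNAs make up the ribosome, and mitochondria transcribe a pair of their own from the mitochondrial genome, *mt-Rnr1* for the small and *mt-Rnr2* for the large subunit. *Rpph1* is the catalytic RNA of RNase P, which trims the 5′ ends of tRNA precursors, and *Rmrp* is the related RNA of RNase MRP, which cuts ribosomal RNA precursors; RNA polymerase III makes both. *Malat1* gathers in nuclear speckles near splicing factors, and *Neat1* is the scaffold of paraspeckles. *Gm42418* and AY036118 are annotated as lincRNAs on opposite strands of the same stretch of chromosome 17, and RefSeq lists *Gm42418* as another name of *Rn18s-rs5*, a pseudogene related to the ribosomal RNA of the small cytosolic subunit.

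The libraries were made with QuantSeq 3′ kits, in which oligo(dT) primes the first strand. Such a primer pairs with poly(A) tails and can also pair with A-rich stretches inside an RNA. Ribosomal RNA and the RNAs of RNase P and RNase MRP do not carry the long poly(A) tail of an mRNA, mitochondrial ribosomal RNAs carry short A tails, and *Malat1* and the long form of *Neat1* end in A-rich tracts encoded in the genome, while the short form of *Neat1* is polyadenylated. The annotated transcripts (GENCODE M21, GRCm38) were therefore searched for the window of 20 bases with the most A. These windows are shown for the members with reads, 5′ to 3′ on the transcript's strand, with the window in capitals and 5 bases on each side.
Gm42418 (chr17:39847162-39847191, + strand): ctttgAAAAAATTAGAGTGTTCAAAgcagg
Rpph1 (chr14:50807456-50807485, − strand): gggccTCATAACCCAATTCAGACTActctc
Malat1 (chr19:5795975-5796004, − strand): gctttAAAAAAAAAAAAGCAAAAGAcgctg
Neat1, long form (chr19:5834093-5834122, − strand): acaagAACAAAAAACAAAGAAAAAAccaag
mt-Rnr1 (chrM:720-749, + strand): taagcAAAAGAATCAAACATAAAAAcgtta
mt-Rnr2 (chrM:1483-1512, + strand): ttgctAAAAAAACAACAAAATCAAAaagta

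The members differed widely in these stretches. *Malat1* and the long form of *Neat1* had up to 17 A in a window. *Malat1* held the longest run, 12 A, in a window that ends 290 bases before its annotated 3′ end. This run lies in the encoded tract at which RNase P is known to release the mature 3′ end. *mt-Rnr2* reached 16 A and *mt-Rnr1* 15 A, and A made up 38.2% and 37.8% of their bases. *Gm42418* was 17.7% A, had at most 11 A in a window, and held a single run of at least 6 A, the run of 6 A shown above. *Rpph1* had at most 8 A in a window and no run of A longer than 2, and *Rmrp* had at most 7 A in a window and no run longer than 3. Among all 141733 annotated transcripts of at least 20 bases, 16.7% held a window with at least 15 A, 61.7% one with at least 12 A, and 37.7% a run of at least 6 A. The first of these was met by *Malat1*, the long form of *Neat1*, *mt-Rnr1*, and *mt-Rnr2*, and none of the 3 by *Rpph1* or *Rmrp*.

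The last 40 bases of 3 transcripts show the contrast at the 3′ end, with runs of at least 3 A in capitals.
Gm42418 (chr17:39848749-39848788, + strand): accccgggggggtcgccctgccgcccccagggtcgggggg
Rpph1 (chr14:50807449-50807488, − strand): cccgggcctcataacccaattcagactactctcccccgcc
Neat1, short form (chr19:5842307-5842346, − strand): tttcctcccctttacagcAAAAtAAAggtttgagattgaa
The short form of *Neat1* holds the letters AATAAA, the usual polyadenylation signal, searched on the transcript's strand only. The last 40 bases of *Malat1* and *mt-Rnr2* also hold them, and those of *Gm42418*, AY036118, *Rpph1*, *Rmrp*, *mt-Rnr1*, and the long form of *Neat1* do not, against 25.8% of the 141704 annotated transcripts of at least 40 bases that do. A match is a run of letters and not a site in use. Positions of reads within the transcripts were not analysed here, so where the primer paired was not tested.

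Total counts ran from 2107715 to 2648920 per sample, and the members took a large part of them. *Gm42418*, *mt-Rnr2*, and *mt-Rnr1* led all genes in this order, ahead of *Actb*, with 2673997, 646684, and 298485 reads over the 6 samples. *Malat1* followed with 20903 reads (rank 46), *Rpph1* with 958 (rank 2355), and *Neat1* with 291 (rank 5370). *Rmrp* had 1 read and AY036118 had 0, so 6 of the 8 members passed the filter of at least 10 reads over all samples.

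Together the 8 RNAs took 28.5% and 26.0% of the reads with isotype, 26.3% and 24.3% with anti-PD1, and 25.4% and 23.9% with anti-Lag3. The group means were 27.2% ± 1.76 (SD, n = 2), 25.3% ± 1.45, and 24.6% ± 1.04, and the groups overlapped except that both isotype samples were above both anti-Lag3 samples. A permutation of 2 samples against 2 cannot reach 0.05, so no test was run on the shares. They count reads and not molecules, and intervals and detection limits cover counting error only, since copies made by PCR were not told apart.

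**Figure D1:**
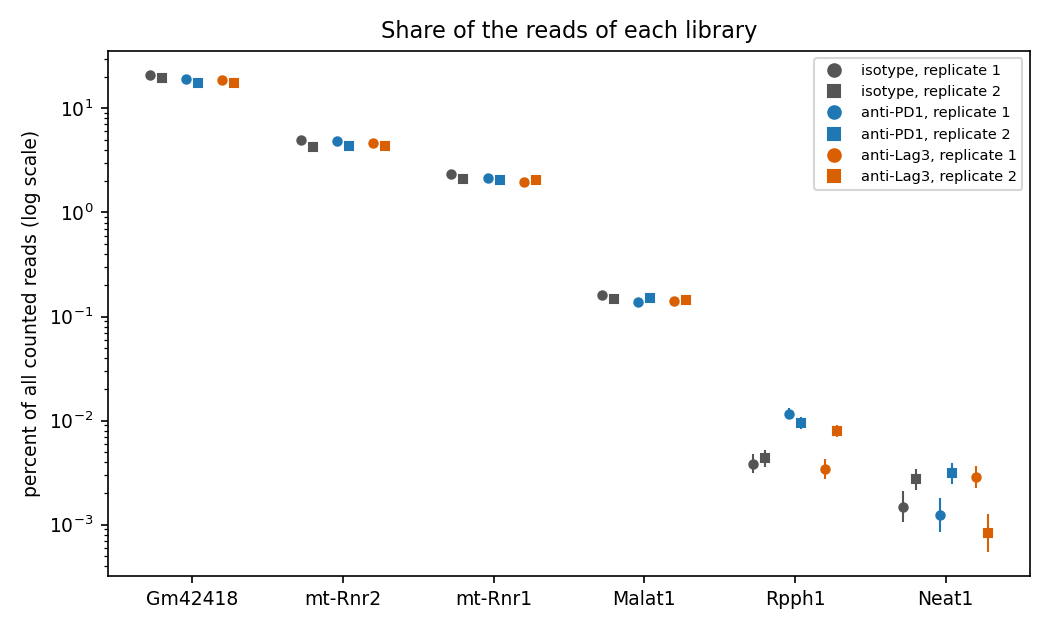
Share of all counted reads, in percent on a log scale, of the 6 members that passed the filter in each of the 6 samples, with 95% Wilson intervals (smaller than the symbol for the 4 most abundant RNAs). Shares run from 17.4% to 21.04% for Gm42418 down to 0.00083% to 0.0031% for Neat1.

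Per kb of annotated transcript the order of the levels was *Gm42418*, *mt-Rnr2*, and *mt-Rnr1* in every group, with CPM values (reads per 1000000 of the library size after TMM scaling) of 113234 ± 8976, 29848 ± 3618, and 23730 ± 2405 per kb in the isotype samples (mean ± SD, n = 2). These 3 did not overlap in any group, the closest being *mt-Rnr2* and *mt-Rnr1*. *Malat1* and *Rpph1* came next and changed places, with 227 ± 19.7 and 131 ± 8.49 CPM per kb in isotype, 205 ± 8.69 and 330 ± 54.4 in anti-PD1, while with anti-Lag3 the replicates of *Malat1* had 199 and 203 and *Rpph1* 175 ± 98.0. They did not overlap in isotype or anti-PD1, and in anti-Lag3 the lower *Rpph1* sample was below and the higher one above both *Malat1* values. *Neat1* was last at 1.03 ± 0.40, 1.04 ± 0.62, and 0.88 ± 0.68 CPM per kb over the long form. A 3′ library tags an RNA at the priming site rather than along its length, so division by length weighs long RNAs down.

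*Gm42418* (chr17:39846958-39848788, + strand) had the highest level with isotype and lower levels with both antibodies. Its reads numbered 465074 and 486536 with isotype, 403393 and 426724 with anti-PD1, and 432663 and 459607 with anti-Lag3. As shares these were 21.04% and 19.4%, 19.1% and 17.7%, and 18.7% and 17.4%, with a 95% Wilson interval of 17.3% to 17.4% in the lowest sample. Both isotype samples were above all 4 others, but the lower isotype sample stood above the higher anti-PD1 sample by less than the replicates of either group differed. On the CPM scale the values were 218954 and 195711, 193007 and 174354, and 182215 and 170464, and replicates differed by 1.12-, 1.11-, and 1.07-fold.

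The fitted log2 fold change of *Gm42418* was −0.17 (SE 0.04) for anti-PD1 over isotype, which is 0.886 of the isotype level, and −0.23 (SE 0.04) for anti-Lag3 over isotype, 0.851 of it. Between anti-PD1 and anti-Lag3 it was 0.06 (SE 0.04), and the samples of these groups overlapped. In bulk samples, less RNA per cell and fewer cells of a type that holds it cannot be told apart. With total counts in place of TMM the differences from isotype were −0.14 and −0.17, and with scaling factors computed without the 8 members they stayed at −0.17 and −0.23. Single libraries moved them more: without isotype replicate 1 they were −0.09 and −0.14, without isotype replicate 2 −0.25 and −0.31, and without anti-PD1 replicate 2 the first was −0.10. In each group the library with fewer reads had the higher share of *Gm42418*, and likewise of *mt-Rnr2*. This library was replicate 1 in every group. The isotype replicate with the higher share also had the lowest total count but 1 of the 6 libraries, 2210513 reads, and the lowest TMM factor, 0.961 against 0.992 to 1.02 in the other 5. The part of these library properties in the difference was not tested.

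AY036118 (chr17:39847113-39848035, − strand) lies wholly inside *Gm42418* on the other strand, and its 923 bases are the exact reverse complement of bases 156 to 1078 of *Gm42418*. It had 0 reads in every sample, and a limit of 3 reads would be a share of 0.000113% to 0.000142% depending on the library. The M21 annotation also places CT010467.1, a ribosomal RNA, over all of AY036118 on the same strand and over 99.5% of *Gm42418* on the opposite strand, and this gene had 0 reads as well. All bases of AY036118 are thus shared on its strand with another row. How the counting treated reads on both is not given in the sources used here, so the 0 of AY036118 sets no limit on the RNA. Reads of *Gm42418* can be told from those of these partners by strand alone, and neither the strand setting of the counting nor the annotation release the authors used is given in the sources used here. *Gm26917*, a lincRNA 617 bases away on the strand of *Gm42418*, had 145 and 64.8 CPM in isotype, 114 and 92.3 in anti-PD1, and 106 and 84.9 in anti-Lag3, with the isotype samples at both ends of the range. Its reads and those of *Gm42418* may be shared with other copies of ribosomal sequence, and how reads with several matches were treated is not given in the sources used here.

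*Rpph1* (chr14:50807449-50807767, − strand) had its highest levels with anti-PD1. Its reads numbered 85 and 109 with isotype, 246 and 228 with anti-PD1, and 80 and 210 with anti-Lag3. On the CPM scale these were 40.02 and 43.8, 118 and 93.2, and 33.7 and 77.9. The lowest anti-PD1 value was above all isotype and anti-Lag3 values, while the anti-Lag3 replicates stood 2.31-fold apart, 1 below both isotype samples and 1 above. As shares, the isotype samples had 0.00385% (95% Wilson interval 0.00311% to 0.00475%) and 0.00436% (0.00361% to 0.00525%) and the anti-PD1 samples 0.0117% (0.0103% to 0.0132%) and 0.00945% (0.00830% to 0.0108%).

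The fitted difference of *Rpph1* was 2.502-fold for anti-PD1 over isotype, a log2 fold change of 1.32 (SE 0.23), and 1.87-fold for anti-PD1 over anti-Lag3, a log2 fold change of 0.90 (SE 0.22). For anti-Lag3 over isotype it was 0.42 (SE 0.24), and without anti-Lag3 replicate 2 it became −0.31. Over all settings tried, anti-PD1 over isotype stayed between 1.148 and 1.49, and anti-PD1 over anti-Lag3 between 0.43 and 1.63, with the lowest value without anti-Lag3 replicate 1 and the highest without anti-Lag3 replicate 2.

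In the annotation, 73.0% of *Rpph1* (233 bases) is shared on the same strand with an exon of *Ccnb1ip1*, which had 0 reads in all samples. *Parp2*, which starts 74 bases away in the other direction and was named for its place, had 43.8 and 59.9 CPM in isotype, 65.5 and 60.1 in anti-PD1, and 64.4 and 67.9 in anti-Lag3. Like *Rpph1*, *Parp2* was higher in both anti-PD1 samples than in both isotype samples, but only by 60.1 against 59.9 CPM at the closest. Unlike *Rpph1*, it had similar levels with anti-PD1 and with anti-Lag3, and both anti-Lag3 values were above isotype too. The likeness and the difference between these patterns were not tested.

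*Rmrp* (chr4:43492788-43493058, − strand) had a single read, in anti-Lag3 replicate 1, and 0 in the other 5 samples, each of which allows a share of up to 0.000113% to 0.000142%. In that library *Rpph1* had 80 reads, so the ratio of *Rmrp* to *Rpph1* was 0.0125 there, and in the anti-PD1 samples it was 0 against 246 and 228. In the annotation 45.8% of *Rmrp* overlaps *Ccdc107* on the other strand, and *Ccdc107* had between 12 and 33 reads per sample. The annotation has a further identifier for *Rmrp* that covers all of this row's bases and has no row in the count table. Why this row held so few reads was not tested, and the level of the RNA itself cannot be read from it.

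**Figure D2:**
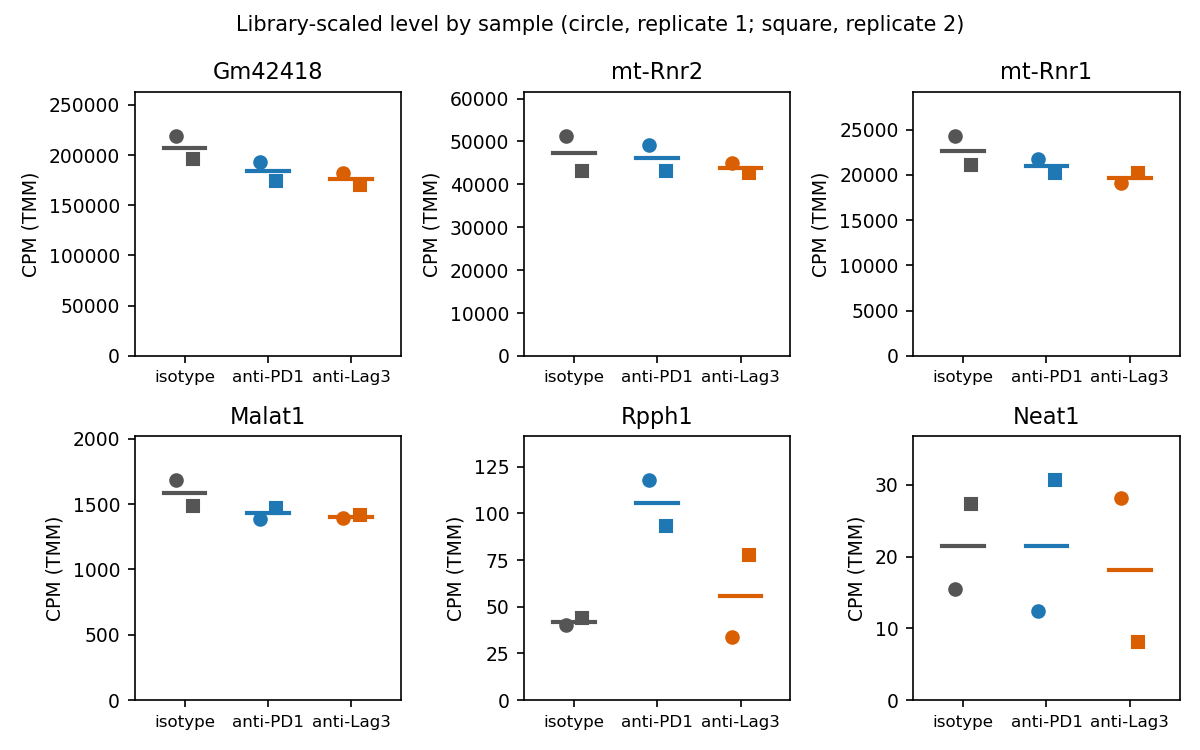
Level in CPM (TMM) of each member in each sample, on linear axes from 0, with circles for replicate 1, squares for replicate 2, and a line at the mean of each group (n = 2). Rpph1 is at 93.2 and 118 CPM with anti-PD1 against 40.02 and 43.8 with isotype, and Gm42418 is highest in the isotype samples.

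*Malat1* (chr19:5795690-5802672, − strand) had 3575 and 3701 reads with isotype, 2900 and 3606 with anti-PD1, and 3303 and 3818 with anti-Lag3. These came to 1683 and 1489 CPM, 1388 and 1473, and 1391 and 1416. Both isotype samples were above the other 4 on this scale, with 1489 against 1473 CPM at the closest, but as shares of reads anti-PD1 replicate 2 (0.149%) was above isotype replicate 2 (0.148%). In edgeR's quasi-likelihood fit, *Malat1* did not pass the threshold for anti-PD1 over isotype, with a log2 fold change of −0.15 (SE 0.08, adjusted p = 0.697), for anti-Lag3 over isotype (−0.18, SE 0.08, adjusted p = 0.809), or for anti-PD1 over anti-Lag3 (0.03, SE 0.08, adjusted p = 0.986). Set against *Gm42418* within a library, *Malat1* had 0.00769 and 0.00761 reads per *Gm42418* read in isotype, 0.00719 and 0.00845 in anti-PD1, and 0.00763 and 0.00831 in anti-Lag3. These ratios overlapped between all groups, with the anti-PD1 replicates furthest apart. Whether the proportion differed between groups was not tested.

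*Neat1* (chr19:5824708-5845478, − strand) varied more between replicates than between groups. It had 33 and 68 reads with isotype, 26 and 75 with anti-PD1, and 67 and 22 with anti-Lag3, or 15.5 and 27.4 CPM, 12.4 and 30.6, and 28.2 and 8.16. Replicates differed by 1.76-, 2.46-, and 3.46-fold, and all groups overlapped. The log2 fold changes were 0.01 (SE 0.39, adjusted p = 1.00, edgeR) for anti-PD1 over isotype, −0.27 (SE 0.39, adjusted p = 0.967) for anti-Lag3 over isotype, and 0.28 (SE 0.39, adjusted p = 0.978) for anti-PD1 over anti-Lag3, and each changed sign when single libraries were left out. *Neat1* reads per *Malat1* read were 0.00923 and 0.0184 in isotype, 0.00897 and 0.0208 in anti-PD1, and 0.0203 and 0.00576 in anti-Lag3.

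The ribosomal RNAs of mitochondria took 6.65% of all reads. *mt-Rnr1* (chrM:70-1024, + strand) had 51585 and 52300 reads with isotype, 45401 and 49563 with anti-PD1, and 45317 and 54319 with anti-Lag3, which are 2.33% and 2.09%, 2.15% and 2.05%, and 1.95% and 2.05% of the reads. *mt-Rnr2* (chrM:1094-2675, + strand) had 108894 and 107324, 102880 and 105566, and 107008 and 115012 reads, or 4.93% and 4.29%, 4.88% and 4.37%, and 4.61% and 4.34%. Scaled to CPM, *mt-Rnr1* was lower in both anti-Lag3 samples (19085 and 20146) than in both anti-PD1 samples (21722 and 20251) and both isotype samples (24286 and 21038), while the values of *mt-Rnr2* overlapped in every pair of groups.

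Neither mitochondrial RNA passed the threshold in edgeR's fit. *mt-Rnr1* had log2 fold changes of −0.11 (SE 0.06, adjusted p = 0.644) for anti-PD1 over isotype, −0.21 (SE 0.06, adjusted p = 0.346) for anti-Lag3 over isotype, and 0.10 (SE 0.06, adjusted p = 0.819) for anti-PD1 over anti-Lag3. The call for anti-Lag3 over isotype depended on the method, with an adjusted p of 0.0011 by limma-voom and 0.0099 by edgeR when genes with at least 1 read were kept, within a range of 0.0011 to 1.00 over all settings tried. *mt-Rnr2* had −0.03 (SE 0.06, adjusted p = 0.966), −0.11 (SE 0.06, adjusted p = 0.846), and 0.07 (SE 0.06, adjusted p = 0.905) in the same order.

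Ratios within a library need no scaling between libraries. There were 0.474 and 0.487 reads of *mt-Rnr1* per read of *mt-Rnr2* in isotype, 0.441 and 0.469 in anti-PD1, and 0.423 and 0.472 in anti-Lag3, so both isotype samples were just above the other 4. Per read of the 13 mitochondrial mRNAs there were 2.52 and 2.00 reads of *mt-Rnr2* in isotype, 2.27 and 1.90 in anti-PD1, and 2.04 and 1.97 in anti-Lag3, and these overlapped between all groups. Of these 13 mRNAs, *mt-Co2*, *mt-Atp8*, *mt-Atp6*, *mt-Co3*, and *mt-Nd4l* are listed at 0 in every sample, although every cell uses them, and so the sum holds the other 8. A listed 0 in this table is therefore no sign that an RNA was absent.

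**Figure D3:**
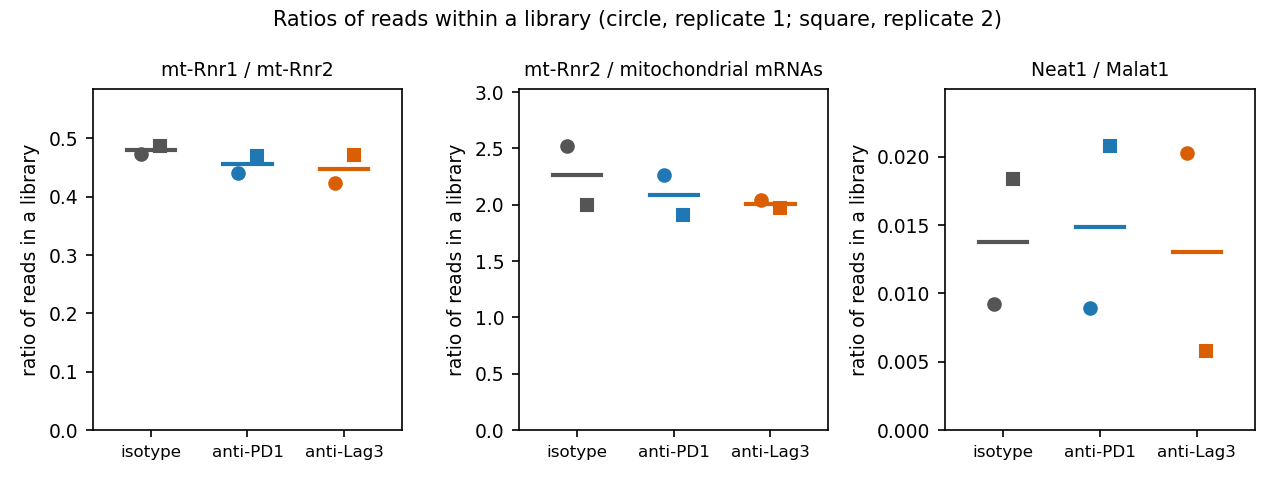
Ratios of reads within each library: mt-Rnr1 to mt-Rnr2, mt-Rnr2 to the sum of the mitochondrial mRNAs, and Neat1 to Malat1, on linear axes from 0, with circles for replicate 1, squares for replicate 2, and lines at the means (n = 2). The first ratio runs from 0.423 to 0.487, and the third spreads from 0.00576 to 0.0208 with the replicates of each group far apart.

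Over the members, 0 of the 4 that were tested with a p-value passed the threshold of an adjusted p under 0.05 (edgeR, Benjamini-Hochberg over 11877 genes) in any comparison. Of all genes tested, 0.901% passed for anti-PD1 over isotype, 0.0421% for anti-Lag3 over isotype, and 0.312% for anti-PD1 over anti-Lag3. At an unadjusted p under 0.05 the counts of these 4 members were 0, 2 (*mt-Rnr1* and *Malat1*), and 0. DESeq2 called 0 in each comparison, and limma-voom called 1, *mt-Rnr1*, for anti-Lag3 over isotype.

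Samples of the groups did not overlap for 3 of the 6 fitted members in anti-PD1 against isotype (*Rpph1* higher, *Gm42418* and *Malat1* lower), beside 37.4% of all genes tested (19.2% higher and 18.2% lower). They did not overlap for 3 in anti-Lag3 against isotype (*Gm42418*, *Malat1*, and *mt-Rnr1*, all lower), beside 34.6% of all genes (17.2% higher and 17.4% lower), and for 2 in anti-PD1 against anti-Lag3 (*Rpph1* and *mt-Rnr1*, both higher), beside 35.9% of all genes (18.2% higher and 17.6% lower). The counts include *Gm42418* and *Rpph1*, which were picked for such differences, so nothing is read from them. The median log2 fold changes of the 6 were −0.07, −0.19, and 0.09, against 0.0040, −0.000016, and −0.0021 over all tested genes. These medians also include the picked genes, so nothing is read from the medians either. The first pair of comparisons share the isotype samples and the other pairs share a treated group.

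**Figure D4:**
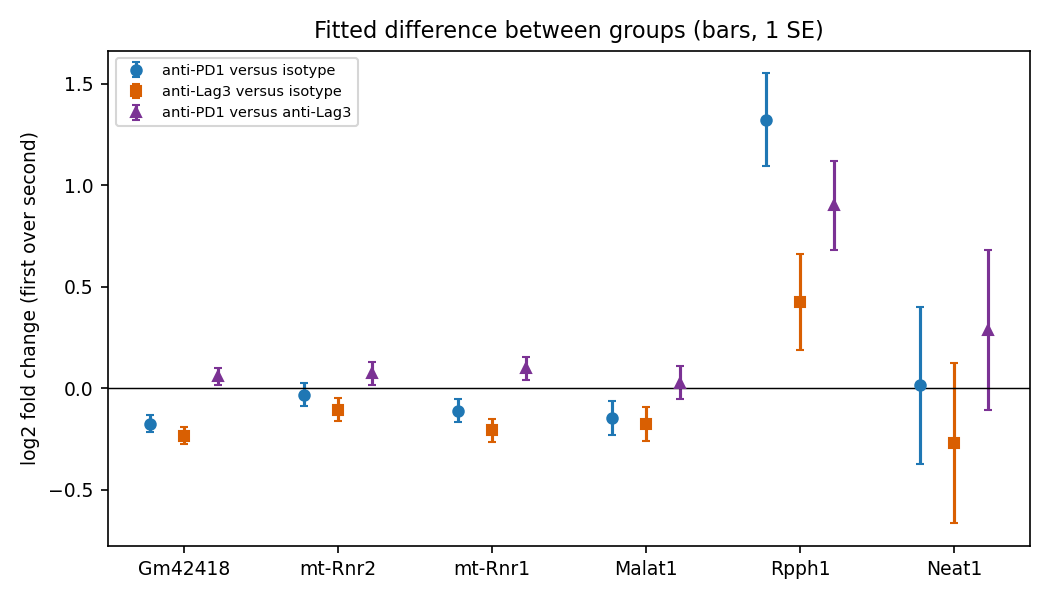
Fitted log2 fold changes of the 6 members for the 3 comparisons, with bars of 1 SE. Rpph1 is at 1.32 for anti-PD1 over isotype, Gm42418 at −0.17 and −0.23 against isotype, and the bars of Neat1 (SE 0.39) span 0.

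Over the 6 samples, *Gm42418* varied together with *mt-Rnr1* (Pearson r = 0.87 of log2 CPM), *mt-Rnr2* (0.81), and *Malat1* (0.75), and *mt-Rnr1* with *mt-Rnr2* (0.79). These are descriptions over samples that share their libraries and scaling. Among 3054 other genes with a mean of at least 50 CPM, the pattern of *Gm42418* was most like those of *Ddx10* (r = 0.98), an RNA helicase of ribosome assembly, *Riok3* (0.97), an atypical kinase, and *Ptma* (0.95), prothymosin. *Ddx10* had 271 and 247 CPM in isotype, 242 and 207 in anti-PD1, and 226 and 212 in anti-Lag3. The pattern of *Rpph1* was most like those of *Polr1c* (r = 0.98), a subunit shared by RNA polymerases I and III, *Thada* (0.98), and *Cyb5b* (0.97), a cytochrome of the mitochondrial outer membrane. *Polr1c* had 79.6 and 81.7 CPM in isotype, 99.5 and 90.7 in anti-PD1, and 77.5 and 89.4 in anti-Lag3, a much narrower range than that of *Rpph1*. These genes were the highest of 3054 searched over only 6 samples, and such a search yields high r values by itself. Whether any of them is regulated together with *Gm42418* or *Rpph1* was not tested.

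Genes known to act with these RNAs and other noncoding RNAs were taken as 10 lists. Of their 129 tested genes, 0 passed the threshold in any comparison by edgeR, against 3, 13, and 13 at an unadjusted p under 0.05 for anti-PD1 over isotype, anti-Lag3 over isotype, and anti-PD1 over anti-Lag3. DESeq2 called 0, and limma-voom called 1, *mt-Nd1*, for anti-Lag3 over isotype. All 11 genes for proteins of RNase P and RNase MRP were tested, with a median log2 fold change of 0.07 for anti-PD1 over isotype, in which *Rpph1* was at 1.32. *Pop1*, the largest of these proteins, had 133 and 107 CPM in isotype, 123 and 104 in anti-PD1, and 101 and 123 in anti-Lag3. *Pop5* had 53.2 and 82.5, 56.5 and 60.1, and 77.9 and 70.8 CPM. *Pop1* overlapped in every pair of groups, and *Pop5* did not overlap between anti-PD1 and anti-Lag3, with a log2 fold change of −0.35 (SE 0.19, adjusted p = 0.797, edgeR).

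For the machinery that makes these RNAs, the median log2 fold changes for anti-PD1 over isotype were 0.03 over 20 genes of RNA polymerase I, which transcribes ribosomal RNA, and −0.06 over 27 genes of RNA polymerase III. For anti-Lag3 over isotype they were 0.04 and 0.04. *Ubtf*, the factor that opens ribosomal DNA for transcription, was between 160 and 190 CPM in all samples, and *Taf1d* between 356 and 451. *Bdp1* and *Gtf3c2*, factors of RNA polymerase III, were between 218 and 266 and between 110 and 127 CPM. The 16 genes of mitochondrial transcription and ribosomal RNA modification had medians of −0.02, −0.14, and 0.13 in the 3 comparisons, and 13 of the 16 were lower with anti-Lag3 than with isotype. Among them *Lrpprc* was between 137 and 168 CPM and *Tfam* between 107 and 129.

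The 12 genes of paraspeckle proteins, partners of *Neat1*, had medians of −0.07, −0.01, and −0.04, and the 10 of nuclear speckle proteins, neighbors of *Malat1*, 0.04, 0.04, and −0.02. *Sfpq*, a core paraspeckle protein, stayed between 873 and 925 CPM. *Srrm2*, a scaffold of nuclear speckles, was between 1222 and 1331 CPM and *Srrm1* between 823 and 973. The 8 tested mitochondrial mRNAs had medians of 0.06, −0.01, and 0.07, with *mt-Nd2* at 5912 and 5868 CPM in isotype, 6239 and 5909 in anti-PD1, and 5623 and 5695 in anti-Lag3. *mt-Nd1*, which follows *mt-Rnr2* on the genome, had 5026 and 5525, 5509 and 5982, and 6605 and 6038 CPM, so it was highest in the anti-Lag3 samples, in which *mt-Rnr1* was lowest. Its log2 fold change for anti-Lag3 over isotype was 0.26 (SE 0.07, adjusted p = 0.309, edgeR).

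Other noncoding RNAs give the scale of what was captured. The 14 tested long noncoding RNAs of RNA polymerase II had medians of 0.17, 0.03, and 0.03, and the most abundant, *Gas5* and *Kcnq1ot1*, had 833 to 971 and 468 to 615 CPM. Of 24 symbols of other small structural RNAs, such as spliceosomal RNAs and the telomerase RNA, 6 rows had enough reads to be tested, led by *Snord13* with 2.95 to 13.1 CPM and *Vaultrc5* with 0 to 5.90. Their median log2 fold changes were 0.65 for anti-PD1 over isotype and 0.77 for anti-Lag3 over isotype, with 5 of 6 above 0 in each, and −0.05 for anti-PD1 over anti-Lag3, and 0 of 6 passed the threshold. The 5 measured genes that hold ribosome-like sequence had a median of −0.29 for anti-PD1 over isotype, all 5 with values below 0, and −0.03 and −0.07 in the other comparisons. *Lars2* was at 38.1 and 35.4 CPM in isotype, 23.4 and 34.3 in anti-PD1, and 39.2 and 33.0 in anti-Lag3.

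By annotated class, snoRNAs took 0.0413% of all reads, with reads on 147 of 1507 rows, snRNAs 0.00870%, and mitochondrial tRNAs 0.0187%. Rows annotated as nuclear ribosomal RNA, among them 5S and 5.8S annotations, took 0.00232%. That class leaves out *Gm42418*, so it is not the share of all reads with cytosolic ribosomal sequence. *Rpph1* and the single read of *Rmrp* made up the 0.00675% of the ribozyme class. Reads of a snoRNA inside a host gene cannot be told from those of the host. Against these classes, the mitochondrial ribosomal RNAs held 6.65% and *Gm42418* most of the 19.1% of the lincRNA class, since lincRNAs without *Gm42418*, *Malat1*, and *Neat1* had 0.159% to 0.183% per sample.

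**Figure D5:**
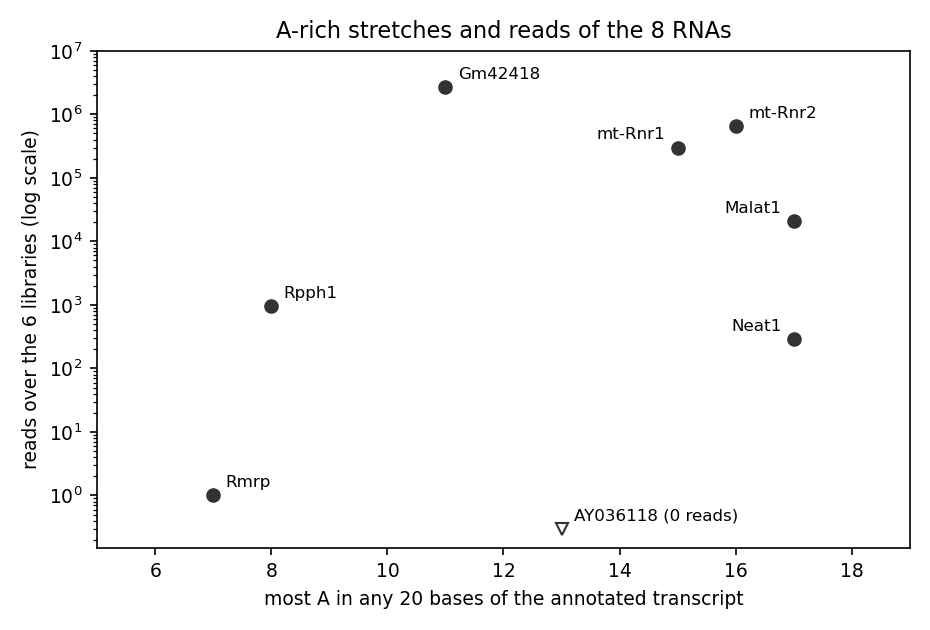
Reads over the 6 libraries (log scale) against the most A in any 20 bases of the annotated transcript for the 8 RNAs, with the long form for Neat1 and AY036118 drawn as an open triangle below the axis values because it had 0 reads. Gm42418 had 2673997 reads with at most 11 A in a window, and Neat1 had 291 reads with up to 17 A in its long form. Reads of Neat1 were not told apart by form, and its short form has at most 12 A in a window. How A-rich stretches relate to capture was not tested.

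The cells carried T cell transcripts, with a summed 2292 and 2419 CPM over 9 T cell markers in isotype, 2025 and 2153 in anti-PD1, and 2361 and 2215 in anti-Lag3. For anti-PD1 over isotype 8 of the 9 had values below 0 (median −0.32), 0 passed the threshold by edgeR, DESeq2, or limma-voom, and 5 had an unadjusted p under 0.05 by each. Transcripts of other cells were present at low levels and some moved with the groups. The 7 B cell markers summed to 116 and 133 CPM in isotype, 63.6 and 53.1 in anti-PD1, and 82.1 and 123 in anti-Lag3, with *Cd79a* at 0 throughout. *Ighm* and *Igkc* fell with anti-PD1 against isotype, with log2 fold changes of −0.89 (SE 0.20, adjusted p = 0.0082, edgeR) and −2.51 (SE 0.48, adjusted p = 0.0013), and DESeq2 called *Igkc* but not *Ighm*. The 8 myeloid markers summed to 54.6 and 47.9, 10.05 and 27.0, and 23.6 and 27.1 CPM, and *C1qa* fell with anti-PD1 against isotype, with a log2 fold change of −2.59 (SE 0.64, adjusted p = 0.026, edgeR), a call that neither DESeq2 nor limma-voom made. *Cd8a* with *Cd8b1* summed to 54.6 and 48.3 CPM in isotype and to 29.8 to 34.4 in the other 4 samples. The 3 neutrophil markers summed to 7.53 and 19.7 CPM in isotype and to 1.48 to 6.70 in the other 4, with *Ly6g* at 0. The 5 erythroid markers summed to 18.7 to 50.4 CPM, the 2 NK cell markers to 0 to 1.41, and the 2 platelet markers to 0 to 1.11 with *Pf4* at 0. The isotype samples were highest in *Gm42418* and in the myeloid, CD8, and neutrophil sums, and the part of these cells in the levels of the 8 RNAs was not tested.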

How the data were processed

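Sorted CD4+ T cells of 6 samples (2 isotype, 2 anti-PD1, 2 anti-Lag3, grouped by the labels) were profiled by QuantSeq 3′ sequencing. A further replicate batch, which the paper says had been sorted and processed together, was set aside by the study as an outlier and was not analysed here. Whether the replicate numbers of the samples kept mark such batches is not stated. The authors trimmed reads, aligned them with STAR 2.5.2a to GRCm38 (mm10), and used HTSeq to count those of each gene; the deposited counts are raw whole numbers. The deposited rlog values were not used. The annotation release, the strand setting, and the treatment of reads with several matches are not given in the sources used here, so overlaps between genes, taken from GENCODE M21 (47224 of 47643 identifiers matched), may differ from those the authors' counting saw.

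The 11877 genes with a sum of 10 or more reads were fitted with edgeR 4.0.16 in R 4.3.3 over all 6 samples (TMM, glmQLFit and glmQLFTest, legacy), with Benjamini-Hochberg adjustment and a threshold of 0.05. CPM are counts per 1000000 of TMM-scaled library size. On this scale 3 reads, the detection limit used, were 1.11 to 1.44 CPM; limits of shares used total counts. Shares have 95% Wilson intervals. The fit was tested on simulated data. Alternatives were other scalings, filters, DESeq2 1.42.0, limma-voom (limma 3.58.1), the 4 samples of a comparison, replicates left out, and the replicate number as a block. Over 3055 genes same-numbered samples did not deviate together, so the numbers were not used as pairs in the main fit. For *Gm42418* and *mt-Rnr2*, though, replicate 1 had the higher share in every group.

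The members and gene lists were chosen with earlier results of these data known. Named genes were every member, the 3 genes most correlated with *Gm42418* and with *Rpph1* (log2 CPM, prior count 2, mean of at least 50 CPM), and in each list the 2 genes with the most reads and up to 4 that passed the threshold. The values of 1 gene that this rule names are not reported here. Figures were drawn with matplotlib 3.10.9.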

Additional observations from a re-analysis of the deposited data

How the results depend on the processing

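Counts of called genes moved with the method more than the members did. For anti-PD1 over isotype the 107 calls became 175 with only the 4 samples compared and 167 at a threshold of 0.1, and ranged from 46 to 163 with a replicate left out. For anti-Lag3 over isotype the 5 calls became 8 with total counts, 20 with genes of at least 1 read, 1 with DESeq2, and 0 with filterByExpr, with edgeR's newer quasi-likelihood method, or with the 4 samples compared, and ranged from 0 to 16 with a replicate left out. For anti-PD1 over anti-Lag3 the 37 calls became 58 with genes of at least 1 read and 16 with DESeq2, and ranged from 3 to 54 with a replicate left out. With the replicate number as a block the calls were 144, 6, and 46, and the correlations of same-numbered deviations were 0.07, 0.07, and −0.10; with crossed numbers as the block and only the 4 samples compared, an alternative chosen after seeing the data, anti-PD1 over anti-Lag3 gave 73, against 51 with those 4 samples and no block. Within each number the share of *Gm42418* was highest in isotype and lowest in anti-Lag3. The replicate block changed no call of a member. For *mt-Rnr1* in anti-Lag3 over isotype the adjusted p was 0.063 with the block (edgeR), against 0.346 without it.

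*mt-Rnr2* for anti-PD1 over isotype turned to 0.0062 with total counts, and *Neat1* for the same comparison to −0.059 with limma-voom. With a replicate left out, *Gm42418* ranged from −0.25 to −0.09 for anti-PD1 over isotype and from −0.31 to −0.14 for anti-Lag3 over isotype, the log2 fold changes of *mt-Rnr2* ranged from −0.15 to 0.10, −0.23 to 0.033, and −0.027 to 0.17 for anti-PD1 over isotype, anti-Lag3 over isotype, and anti-PD1 over anti-Lag3, those of *Neat1* from −0.79 to 0.50, −1.40 to 0.39, and −0.53 to 1.42, *Rpph1* for anti-Lag3 over isotype from −0.31 to 0.89, and for anti-PD1 over anti-Lag3 *Malat1* from −0.015 to 0.067 and *Gm42418* from −0.019 to 0.13. The causes were not tested. *mt-Rnr1* for anti-Lag3 over isotype passed the threshold at −0.19 by limma-voom and −0.21 with genes of at least 1 read.

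The share of the 8 members together, per 100 reads of another total, was 37.4, 33.9, and 32.7 in isotype, anti-PD1, and anti-Lag3 against all other genes and 38.2, 34.6, and 33.4 against protein-coding genes. Without *Gm42418* in either, the other 7 took 8.76%, 8.45%, and 8.09%. The depth limits *Neat1*, at 22 to 75 reads per sample, while for *Gm42418*, *mt-Rnr1*, and *mt-Rnr2* the spread between replicates exceeded counting error. Whether depth limits *Rmrp* and AY036118 was not tested.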

Other observations

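Rows with *Hist* symbols, taken as replication-dependent histone mRNAs, also had reads in these libraries. Such mRNAs typically end in a stem loop and not in a poly(A) tail. Whether these reads came from forms without a tail was not tested. This group of symbols was chosen after its values were seen. Reads fell on 57 of 68 *Hist* symbols and made up 0.145% of all reads, with 0.178% and 0.109% in the isotype samples, 0.170% and 0.143% in anti-PD1, and 0.134% and 0.143% in anti-Lag3, so the isotype samples spanned the whole range of the 6.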
